A study of Mus musculus with 15 samples.

Results

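The genes described here are 10 regulators and products of muscle formation in the mouse: the satellite-cell and determination factors Pax7, Myf5 and Myod1, the differentiation factors Myog, Myf6 and Mef2c, the developmental myosin heavy chains Myh3 and Myh8, the acetylcholine receptor subunit Chrna1 and the adhesion molecule Ncam1. They were chosen by name, and every array probe whose transcript record maps to 1 of these symbols was taken, which gave 15 probes of the 55681 on the array (10 of 21154 gene symbols). Each of 15 arrays held RNA from the femoral midshaft of 1 male C57BL/6J mouse, given as 9 weeks old in the labels, labelled with Cy5, beside a commercial reference RNA from 11 mouse cell lines labelled with Cy3. In the 2 Surgery groups a segment of the femur had been cut out and replaced by a pinned scaffold wrapped in a collagen sponge soaked in saline. Sham mice had no such defect. FLT-Sham (4 arrays) and FLT-Surgery (3 arrays) mice were then housed in spaceflight, and G-Sham (4 arrays) and G-Surgery (4 arrays) mice on the ground. The paper describes the age in the labels as roughly the age at surgery. It places euthanasia some weeks after surgery, at the end of this housing, so the mice were older than labelled when sampled. No earlier time after surgery was sampled. The labels call every sample callus, but in Sham mice the tissue was the same stretch of intact femur. The question for the 10 genes is whether their transcripts in the bone sample differed with spaceflight, with the defect, or with both together.

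Skeletal muscle repairs itself from satellite cells, stem cells that lie against the fibre and carry Pax7. Injury activates them, Myf5 and Myod1 commit them to the muscle lineage, and Myog with Mef2c carries them through differentiation and fusion into new fibres, which pass through embryonic (Myh3) and perinatal (Myh8) myosin before the adult forms. Myf6, also called MRF4, persists in mature fibres, and Chrna1 and Ncam1 spread over a fibre when it loses its nerve or regenerates. Mef2c and Ncam1 are not limited to muscle: Mef2c also acts in vessel, blood and bone cells, and Ncam1 is made by nerve. In bulk RNA, fewer muscle cells and less RNA per muscle cell cannot be told apart.

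The myogenic factors bind the E-box, CANNTG, which reads the same on both strands. Of the 10 genes, 7 had a RefSeq promoter (GRCm38.p6, 250 bases before the start site scanned here), with 9 promoters in all, of which 6 held an E-box. Of the 32851 promoters of the same length, 66.2% hold at least 1. No promoter was held for Myf6, Myod1 and Ncam1. The promoters of Myog and Chrna1, targets of the myogenic factors, and of Myh3 and Myh8, which lie in 1 cluster of myosin genes, are shown as examples. Each is written in the direction of its gene, up to the base before the start site, with the E-boxes in capitals. They lie at chr1:134289754-134290003 on the plus strand, chr2:73580339-73580588 on the minus strand, and chr11:67078050-67078299 and chr11:67276874-67277123 on the plus strand.
Myog: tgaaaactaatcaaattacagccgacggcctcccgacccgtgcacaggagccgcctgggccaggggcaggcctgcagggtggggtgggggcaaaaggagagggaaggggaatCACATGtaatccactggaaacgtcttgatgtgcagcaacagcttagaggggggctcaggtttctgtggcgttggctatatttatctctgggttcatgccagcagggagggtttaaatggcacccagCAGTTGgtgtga
Chrna1: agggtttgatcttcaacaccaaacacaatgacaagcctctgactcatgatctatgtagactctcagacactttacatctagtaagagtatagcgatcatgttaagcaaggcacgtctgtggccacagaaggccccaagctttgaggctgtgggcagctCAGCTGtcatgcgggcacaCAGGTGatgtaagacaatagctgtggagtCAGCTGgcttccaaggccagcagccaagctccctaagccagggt
Myh3: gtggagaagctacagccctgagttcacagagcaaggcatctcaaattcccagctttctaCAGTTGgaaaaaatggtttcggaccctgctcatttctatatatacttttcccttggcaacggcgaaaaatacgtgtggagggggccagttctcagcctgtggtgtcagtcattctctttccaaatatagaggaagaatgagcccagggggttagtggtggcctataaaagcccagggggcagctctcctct
Myh8: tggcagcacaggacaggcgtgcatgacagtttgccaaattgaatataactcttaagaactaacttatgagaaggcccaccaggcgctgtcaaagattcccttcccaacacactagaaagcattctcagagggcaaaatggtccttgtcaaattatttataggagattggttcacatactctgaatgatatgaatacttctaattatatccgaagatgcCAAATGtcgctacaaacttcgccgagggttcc
Chrna1 had 3 E-boxes, starting at -92, -73 and -44 from the start site (12.2% of all promoters hold 3 or more). Myog had 2, at -138 and -12 (31.8% hold 2 or more), and Myh3 and Myh8 had 1 each, at -191 and -32. A match is a stretch of letters and not evidence of binding.

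Most of these genes gave little signal in the femur. Only the brightest Ncam1 probe and the brighter Myh8 probe were above background in Cy5 (the scanner software's call, on at least 50% of a probe's spots) on all 15 arrays. The dimmer Myh8 probe was above it on 11 arrays, Myf6 on 7, the Myh3 probes on 7 and 5, Myog and Mef2c on 3 each, Myod1 and the brighter Chrna1 probe on 2 each, Pax7 on 1 and Myf5 on none. The groups differed in this. Of the 15 probes, 12 were above background on no FLT-Surgery array, against 9 in G-Sham, 4 in FLT-Sham and 3 in G-Surgery. Over all probes the share above background per array was 23.1% to 32.9% in G-Sham, 26.6% to 38.5% in FLT-Sham, 25.7% to 37.2% in G-Surgery and 22.4% to 25.6% in FLT-Surgery, and the part of this general detection in the counts of the 10 genes was not tested. The arrays with the most of the 15 probes above background, FLT-Sham 6 (10 probes), FLT-Sham 4 (9) and G-Surgery 1 (9), were also the 3 with the most probes of any kind. Levels below are log2 ratios of Cy5 to Cy3, listed by replicate number (1, 3, 4 and 5 for the ground groups, 4, 6, 8 and 9 for FLT-Sham, 1, 3 and 5 for FLT-Surgery), and they say nothing about the level of 1 gene against another.

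**Figure D1:**
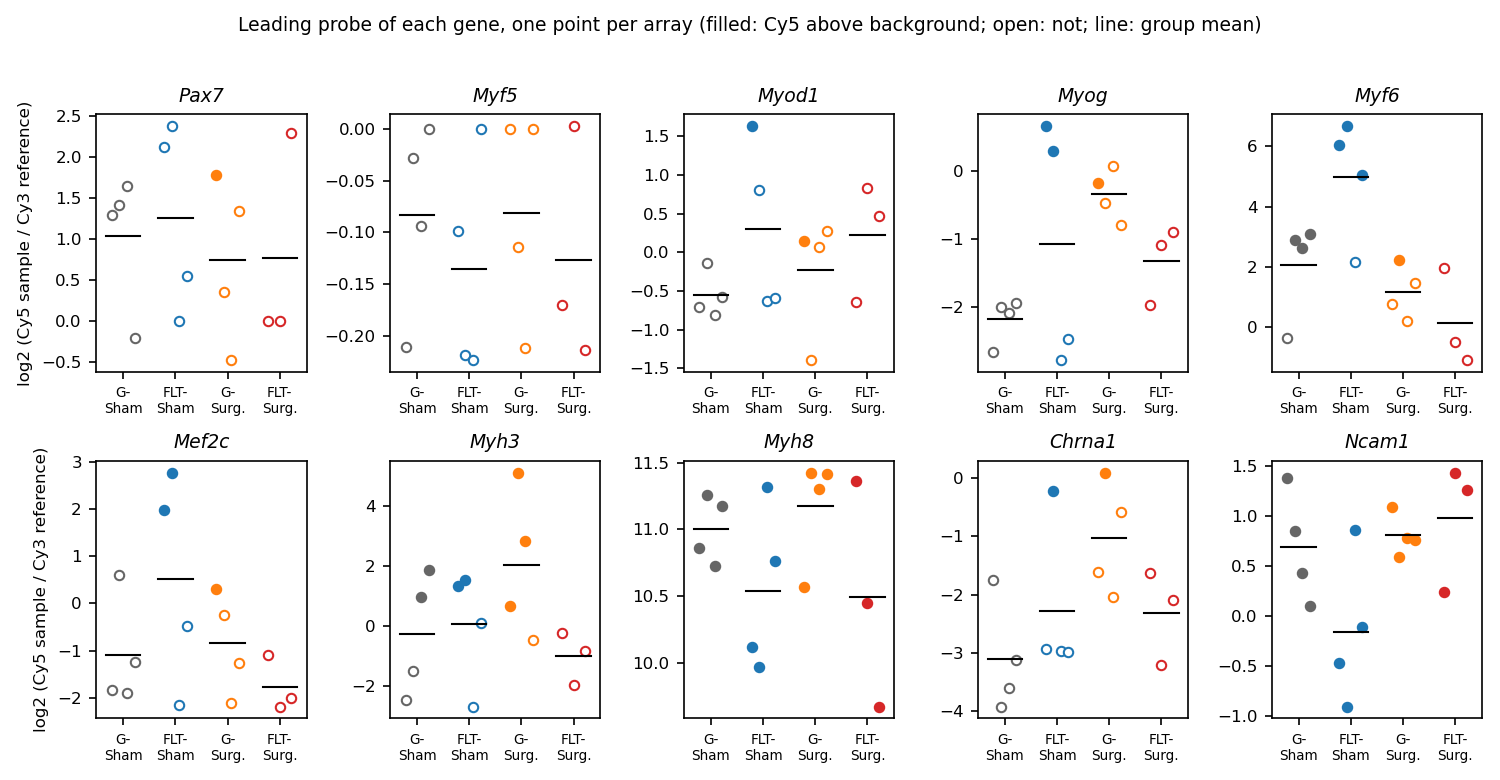
Log2 ratio of Cy5 (sample) to Cy3 (reference) for the leading (brightest) probe of each gene, with a point per array in the 4 groups, filled where Cy5 was above background and open where it was not, and a line at each group mean; every panel has its own axis. Most points of the transcription factors are open, Myog lies between -0.80 and 0.06 in G-Surgery and between -2.66 and -1.95 in G-Sham, and 3 FLT-Sham arrays stand highest for Myf6.

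The satellite-cell and determination factors were at or below the limit of detection. Pax7, the marker of quiescent satellite cells, was above background on G-Surgery 1 alone, with a log2 ratio of 1.78 there. Its reference signal was also above background on only 1 array, and on 3 arrays the scanner software had set the log ratio to 0. Myf5 had 10 spots per array and not a spot of any array was above background. Myod1, which directs cells into the muscle lineage, also had 10 spots per array. Of these, 1 of 40 was above background in G-Sham, 11 of 40 in FLT-Sham, 7 of 40 in G-Surgery and 7 of 30 in FLT-Surgery. Its mean log2 ratio was -0.56 ± 0.30 (SD, n = 4) in G-Sham, 0.31 ± 1.11 (n = 4) in FLT-Sham, -0.23 ± 0.78 (n = 4) in G-Surgery and 0.22 ± 0.77 (SD, n = 3) in FLT-Surgery. The ranges of all 4 groups overlapped, with the highest value on FLT-Sham 4 (1.63) and the lowest on G-Surgery 3 (-1.39). At these signals no difference was detectable for the 3 genes, which were too dim to enter a test.

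Myogenin (Myog), which switches myoblasts into differentiation, was also read by 10 spots per array. Above background were 1 of 40 spots in G-Sham, 18 of 40 in FLT-Sham, 11 of 40 in G-Surgery and 5 of 30 in FLT-Surgery. In FLT-Sham the 18 spots were nearly all from replicates 4 and 6, with 8 and 9 of 10. Its log2 ratios were -2.66, -2.00, -2.09 and -1.95 in G-Sham, 0.65, 0.29, -2.78 and -2.48 in FLT-Sham, -0.19, -0.48, 0.06 and -0.80 in G-Surgery and -1.97, -1.10 and -0.90 in FLT-Surgery. All 4 G-Surgery values stood above all 4 G-Sham values, and the FLT-Sham arrays split into 2 high and 2 low. Myog was above background on too few arrays for the tests of 2 groups. With no filter on dim probes it was 1.82 (SE 0.24) higher in G-Surgery than in G-Sham on the log2 scale (limma, adjusted p = 0.378). In that fit 1.05% of all 55681 probes passed the cut-off of the study, a change of 2-fold or more at an unadjusted p not above 0.01. Since no G-Sham array and only 1 of 4 G-Surgery arrays measured Myog above background, this is a difference between signals that were mostly not above background, and its size was not established. G-Surgery lay wholly above G-Sham at 2.23% of these probes. The Myog difference within slide 1 was 1.69 (3 G-Surgery arrays against 1) and within slide 2 was 1.83 (1 against 2).

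Myf6, the factor of mature fibres, ranged widely among the arrays. Its log2 ratios were -0.34, 2.89, 2.62 and 3.08 in G-Sham, 6.03, 6.67, 2.17 and 5.05 in FLT-Sham, 0.77, 2.23, 0.21 and 1.46 in G-Surgery and 1.95, -0.50 and -1.08 in FLT-Surgery. FLT-Sham 4, 6 and 9 were the highest of the 15 arrays, every FLT-Surgery array lay below every FLT-Sham array, and G-Sham 1 stood apart from the other G-Sham arrays. Cy5 signals given per array are processed values (background-subtracted and dye-normalized), in arbitrary units, unless stated. For Myf6 the FLT-Sham arrays read 1849, 2998, 180 and 1121. The FLT-Surgery arrays read 156, 34.4 and 35.8, none of them above background. Before processing the median signals were 104, 170, 33.5 and 78 in FLT-Sham and 35, 24 and 26 in FLT-Surgery. Mef2c, a partner of the myogenic factors that vessel and blood cells also express, was above background on FLT-Sham 4 and 6 and on G-Surgery 1. Those arrays read 1.98, 2.78 and 0.31, and the others lay between -2.19 and 0.60.

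The embryonic myosin Myh3 had its highest mean in G-Surgery. On its brighter probe (A_55_P2066440) the log2 ratios were -2.47, -1.52, 0.95 and 1.86 in G-Sham, 1.32, 1.54, -2.70 and 0.10 in FLT-Sham, 0.64, 5.11, 2.81 and -0.47 in G-Surgery and -0.23, -1.97 and -0.84 in FLT-Surgery. Above background were 2 G-Sham, 2 FLT-Sham, 3 G-Surgery and no FLT-Surgery arrays, and the groups overlapped in every pair. The high G-Surgery mean rested on replicates 3 and 4, whose Cy5 signals were 3047 and 671. The dimmer probe of Myh3 (A_55_P2083406) had the same highest arrays, at 2.95 and 2.21, and read -0.21 or less on every FLT-Surgery array.

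Perinatal myosin, Myh8, was read by a pair of probes with very different behaviour. The dimmer probe (A_55_P2120161) gave log2 ratios of 2.84, 3.58, 4.62 and 5.64 in G-Sham, 7.83, 9.18, 3.02 and 6.48 in FLT-Sham, 2.90, 5.24, 4.49 and 4.95 in G-Surgery and 4.2, 1.13 and 0.14 in FLT-Surgery. The brighter probe (A_51_P143296) stayed between 9.67 and 11.43 on all 15 arrays, and its group means were 11.00 ± 0.25 (SD, n = 4) in G-Sham, 10.54 ± 0.62 (n = 4) in FLT-Sham, 11.18 ± 0.41 (n = 4) in G-Surgery and 10.50 ± 0.85 (SD, n = 3) in FLT-Surgery. Its Cy5 signal was far from constant. It read 132576, 726126, 1330830 and 1407780 in G-Sham, 4402030, 4062180, 296165 and 2421730 in FLT-Sham, 132532, 696465, 451787 and 755472 in G-Surgery and 793271, 58594 and 41488 in FLT-Surgery. The Cy3 channel of the same spot moved with Cy5, although every array carried the same reference, and why was not tested. Before background subtraction and dye normalization the Cy5 signal ran from 528 to 147082 and the Cy3 signal from 123 to 5247. At the dimmer probe Cy3 stayed between 65.0 and 160 and was above background on 1 array. The log ratio of the brighter probe and its Cy5 signal therefore gave different pictures of the same spots, and both are given in each comparison.

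**Figure D2:**
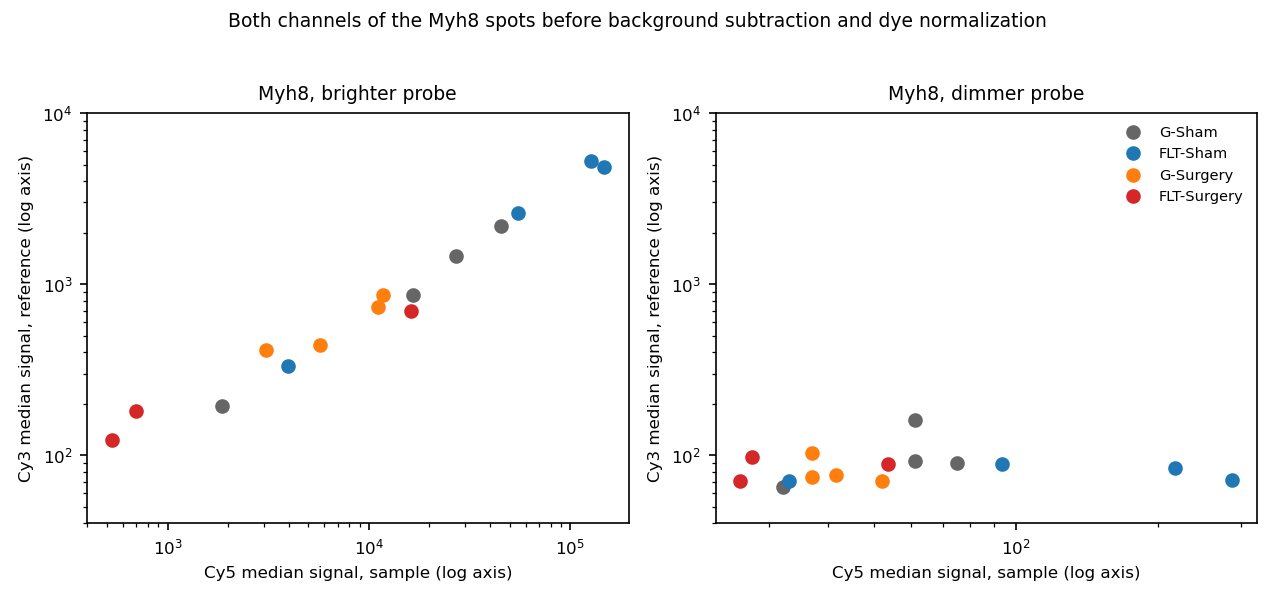
Median Cy5 signal (sample, horizontal) against median Cy3 signal (reference, vertical) of the Myh8 spots on each of the 15 arrays before background subtraction and dye normalization, both on log axes, coloured by group. Cy3 of the brighter probe climbs from 123 to 5247 with Cy5, while Cy3 of the dimmer probe stays between 65.0 and 160.

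The adult fast myosins were lowest in FLT-Surgery in their median Cy5 signal. Myh4, the myosin of the fastest fibres, had Cy5 signals of 311234 to 2987660 in FLT-Sham and 10779 to 791893 in FLT-Surgery on its brightest probe. Myh1 ran from 96016 to 529802 and from 5389 to 102430 in these groups, and Myh2 from 12736 to 233341 and from 232 to 2641. The skeletal myosin genes are close copies of each other, the probe sequences were not used here, and how far the Myh8 probes read Myh1, Myh2 or Myh4 was not tested. The 5 probes whose log2 ratio followed the brighter Myh8 probe most closely over the 15 arrays, among 5101 probes above background on all of them, were those of Tnnc2 (Pearson r = 0.94), the calcium-binding troponin of fast fibres, Mphosph8 (0.91), Ostf1 (0.89), Myh10 (0.89) and Yipf1 (0.89). In Cy5 signal alone the r with Tnnc2 was 0.99 and with Myh10 was 0.08. All 15 values share their arrays, dyes and slides, and the order is a description.

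**Figure D3:**
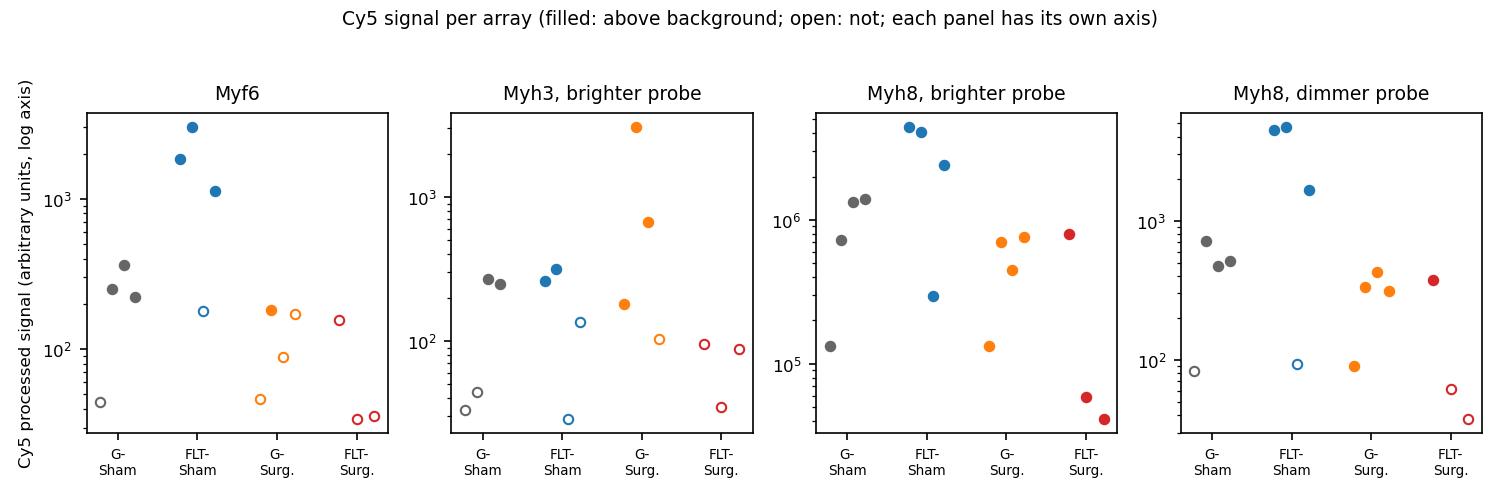
Cy5 processed signal in arbitrary units (log axis) of Myf6, the brighter Myh3 probe and both Myh8 probes, with a point per array in the 4 groups, filled where above background. FLT-Sham 4, 6 and 9 are the highest arrays for Myf6 and both Myh8 probes, G-Surgery 3 (3047) is the highest for Myh3, and 2 of the 3 FLT-Surgery arrays are the lowest for Myf6 and Myh8.

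Chrna1, the subunit of the muscle acetylcholine receptor that binds the transmitter, had a leading probe above background on FLT-Sham 6 and G-Surgery 3 only. It read -1.74, -3.92, -3.61 and -3.12 in G-Sham, -2.93, -0.22, -2.98 and -2.99 in FLT-Sham, -1.61, 0.10, -2.04 and -0.59 in G-Surgery and -1.64, -3.21 and -2.10 in FLT-Surgery. The G-Surgery arrays were mostly above the G-Sham arrays, with overlap between G-Sham 1 and G-Surgery 4. With 1 of 4 G-Surgery arrays and no G-Sham array above background, no size was given to this difference. The other Chrna1 probe was above background on no array.

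Ncam1, an adhesion molecule of activated satellite cells, denervated fibres and nerve, had a leading probe above background on every array. Its leading probe read 1.38, 0.85, 0.43 and 0.10 in G-Sham, -0.47, -0.91, 0.86 and -0.11 in FLT-Sham, 1.09, 0.59, 0.78 and 0.76 in G-Surgery and 0.24, 1.43 and 1.26 in FLT-Surgery. FLT-Sham arrays 4, 6 and 9, which were high for Myf6 and Myh8, were the 3 lowest arrays, and no pair of groups was separate. The other probes of Ncam1 were above background on 2 arrays and on none. Over the 15 arrays the probes most like the leading Ncam1 probe were those of Rpl7a (Pearson r = 0.98), Chst1 (0.98), Rpl13a (0.98), Ptchd4 (0.97) and 1700020L24Rik (0.97). Rpl7a and Rpl13a encode ribosomal proteins.

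Spaceflight in Sham mice was compared first. The FLT-Sham mean was above the G-Sham mean for Myf6, by 2.92 (SE 1.09) on the log2 scale (limma, adjusted p = 0.505). For the dimmer Myh8 probe it was above by 2.46 (SE 1.24; limma, adjusted p = 0.522), while Ncam1 differed by -0.85 (SE 0.47; adjusted p = 0.522). The groups overlapped on every member probe tested. Myh3 gave 0.36 (SE 1.20) and 0.48 (SE 1.08) on its probes. The brighter Myh8 probe gave -0.46 (SE 0.38) in the log ratio and 1.02 in Cy5 signal before dye normalization, the opposite direction. Of the 4 genes bright enough to be tested, 0 passed the cut-off in this test, against 2.5% of all genes. Of their 6 probes 1, that of Myf6, reached an unadjusted p under 0.05, as did 9.57% of all probes. Without FLT-Sham 8, the array with the lowest detection in its group, both Myf6 (3.86, limma adjusted p = 0.0582) and the dimmer Myh8 probe (3.66, adjusted p = 0.0579) passed the cut-off. In that fit 2071 probes passed in all, against 394 in the main test.

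In mice with the defect, the developmental myosins had lower means after spaceflight, short of the cut-off. FLT-Surgery differed from G-Surgery by -3.04 (SE 1.25) for Myh3 (limma, adjusted p = 0.297) and -2.57 (SE 0.99) for the dimmer Myh8 probe (limma, adjusted p = 0.288). These shrank to -0.74 and -0.27 with normexp, and to -2.25 and -1.11 in Cy5 signal before dye normalization. Ncam1 gave 0.17 (SE 0.35) and the brighter Myh8 probe -0.68 (SE 0.45), or -1.52 (SE 0.96) in Cy5 signal before dye normalization. As a bound against the limit of detection, which was not itself tested, the Cy5 signal of Myh3 was at least 4.43-fold higher in G-Surgery than in FLT-Surgery. In G-Surgery 3 of 4 arrays measured it and in FLT-Surgery none did. The probe thus entered the test only through the group where it was high. Of 3 genes tested, 0 passed the cut-off, against 3.75% of all genes, and 2 of 4 probes reached an unadjusted p under 0.05, against 16.4% of all probes. The dimmer Myh8 probe passed with slide as a block (-2.76, limma adjusted p = 0.107) and without FLT-Surgery 1 (-3.76, adjusted p = 0.0268). With slide as a block 1290 probes passed in all, against 519 in the main test.

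On the ground no member passed the cut-off between defect and intact bone. Myh3 gave 2.32 (SE 1.35) and 2.08 (SE 1.16) on the log2 scale for its probes (limma, adjusted p = 0.544 and 0.530). Myf6 differed by -0.89 (SE 0.79), Ncam1 by 0.12 (SE 0.32) and Myh8 by 0.17 (SE 0.28) on its brighter and 0.23 (SE 0.70) on its dimmer probe. In Cy5 signal before dye normalization the Myh8 probes turned sign, to -0.75 (SE 0.81) and -0.35 (SE 0.50). Of 4 genes tested, 0 passed the cut-off, against 3.47% of all genes, and 0 of 6 probes reached an unadjusted p under 0.05 in limma, against 10.9% of all probes. Without G-Sham 1 the difference for Myf6 was -1.69 and passed it (limma, adjusted p = 0.205).

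The defect in spaceflight gave the only member past the cut-off in the 5 main tests. Myf6 was lower in FLT-Surgery than in FLT-Sham by a log2 difference of -4.86 (SE 1.17; limma, adjusted p = 0.136), with all 3 FLT-Surgery arrays below all 4 FLT-Sham arrays. No FLT-Surgery array measured Myf6 above background, so it entered this test only through FLT-Sham, and the difference is a fitted value against undetected signal. The Cy3 signal of Myf6 was above background on 7 of the 15 arrays. Against the limit of detection its Cy5 signal was at least 7.0-fold higher in FLT-Sham, where 3 of 4 arrays measured it. The dimmer Myh8 probe gave -4.81 (SE 1.53; limma, adjusted p = 0.156), the brighter -0.046 (SE 0.54) and Ncam1 1.13 (SE 0.53; adjusted p = 0.230). In Cy5 signal before dye normalization the brighter Myh8 probe differed by -3.30 (SE 1.10; limma, adjusted p = 0.151). The count of 1 gene of 3 stood against 9.61% of all genes, and 6.22% of all probes fell past the cut-off. At 10.6% of all probes FLT-Surgery lay wholly below FLT-Sham. Of the 4 member probes 2 reached an unadjusted p under 0.05, against 24.3%. Within slide 1 the Myf6 difference was -6.82 (2 FLT-Surgery arrays against 1) and within slide 2 it was -2.68 (1 against 3). The call was lost with slide as a block (-4.63, limma adjusted p = 0.335), with normexp background correction (-1.81, adjusted p = 0.236), with no filter on dim probes (adjusted p = 0.292), and without FLT-Surgery 3 (-4.55, adjusted p = 0.365) or 5 (-4.25, adjusted p = 0.425). Without FLT-Sham 4, 6 or 9, Myf6 was above background on too few arrays to be tested. The filter on both channels left it untested as well.

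Whether spaceflight acted differently in Surgery and Sham mice was tested as the difference between the spaceflight effects over all 15 arrays. It was -3.96 (SE 1.49) for Myf6 (limma, adjusted p = 0.203), -5.03 (SE 1.75) for the dimmer Myh8 probe (limma, adjusted p = 0.191), -3.40 (SE 1.88) and -2.88 (SE 1.61) for Myh3, -2.56 (SE 1.39) for Mef2c and -2.07 (SE 0.98) for Myog (limma, adjusted p = 0.263). Mef2c and Myog were above background on 3 of the 15 arrays, none of them G-Sham or FLT-Surgery, and entered through the other groups. No FLT-Surgery array measured Myf6 or Myh3. These values are fitted against undetected signal, and their size was not established. Ncam1 gave 1.01 (SE 0.61), and the brighter Myh8 probe -0.22 (SE 0.59), or -2.55 (SE 1.48) in Cy5 signal before dye normalization. None of the 6 genes tested passed the cut-off, against 7.97% of all genes, and 2 of 8 probes reached an unadjusted p under 0.05, against 19.5% of all probes. Over all probes tested the median of this difference was -0.37. A further loess within each array moved that median to 0.49, and the medians of the 4 comparisons of groups from 0.24, -0.20, 0.14 and -0.28 to -0.13, 0.29, -0.080 and 0.35. Without FLT-Sham 8 the values for Myf6 (-4.90, limma adjusted p = 0.0374), the dimmer Myh8 probe (-6.24, adjusted p = 0.0340) and Myog (-2.63, adjusted p = 0.0562) passed the cut-off. The limits of detection given above for Myf6 and Myog hold there too. At an adjusted p under 0.05 no member passed in any of the 5 tests, where 0%, 0%, 0.0113%, 0.0836% and 0% of all probes did, in the order given here. These p-values measure the spread between mice, 1 array each.

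**Figure D4:**
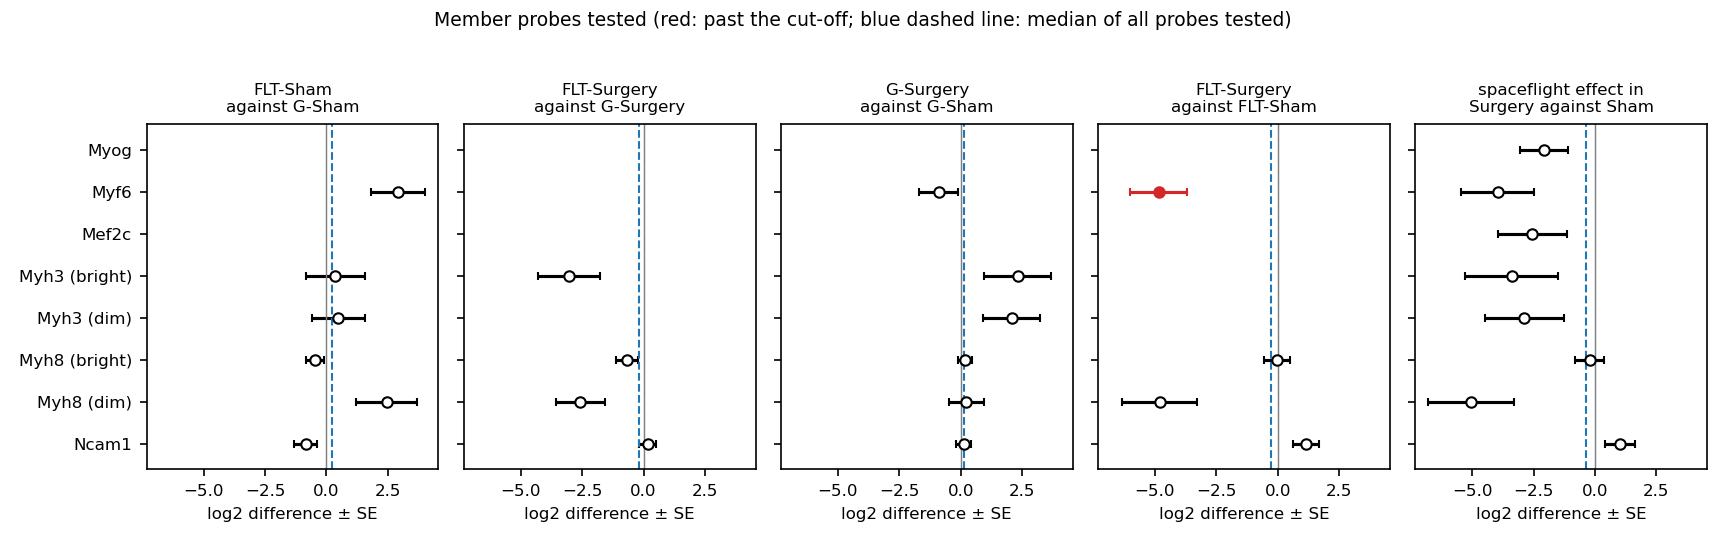
Log2 difference with its SE (limma) for each member probe tested in the 4 comparisons and, at the right, for the difference between the spaceflight effects in Surgery and Sham mice; red marks a probe past the cut-off and the blue dashed line is the median of all probes tested. Myf6 in FLT-Surgery against FLT-Sham, at -4.86, is the single red point.

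Other regulators of the muscle lineage were read from a list of 58 genes, without the 10 members. In FLT-Surgery against G-Surgery, 34 were bright enough to test, and 4 fell and 1 rose past the cut-off, with a median log2 difference of -0.83 beside -0.20 over all probes, and 3.75% of all genes were called. This balance turned with the scaling, to 1 lower and 2 higher after a further loess and to none lower and 1 higher with normexp. Those that fell included Cdon, a receptor that promotes myoblast differentiation (-3.02, SE 0.32; limma adjusted p = 0.172), Cdh15, the M-cadherin of satellite cells (-2.39, SE 0.45), and Tcf12, an E-protein partner of the myogenic factors (-2.84, SE 0.71). All 3 were above background on no FLT-Surgery array and entered the test through G-Surgery, so their size is a bound: the Cy5 signal of Cdon was at least 3.79-fold, of Cdh15 at least 3.11-fold and of Tcf12 at least 3.27-fold higher in G-Surgery, measured on 3, 4 and 3 of 4 arrays. Mef2a, a relative of Mef2c, rose by 1.19 (SE 0.27). In G-Surgery against G-Sham 5 of 36 rose and none fell, against 3.47% of all genes called, and 1 rose with normexp. Among the 5 were Tcf12, which no G-Sham array measured, at least 3.13-fold higher in Cy5 signal (log2 difference 2.39, SE 0.48), Cd34, a marker of satellite cells and of blood and vessel progenitors, which rose by 1.24 (SE 0.28), Kirrel, by 1.73 (SE 0.47), and Tcf4, by 1.19 (SE 0.34). FLT-Surgery against FLT-Sham had 4 of 38 lower and none higher, against 9.61% of all genes called: Lmod3 (-3.89), Vgll2 (-6.14), Ankrd2 (-5.25) and Cdh15 (-3.13). No FLT-Surgery array measured Ankrd2 or Cdh15, which were at least 12.4-fold and 3.98-fold higher in FLT-Sham in Cy5 signal. With normexp 1 of the list was lower. In FLT-Sham against G-Sham none of 38 passed, at a median of 0.79 beside 0.24 over all probes. The difference between the spaceflight effects was past the cut-off and negative for 8 of 42, against 7.97% of all genes called, with Fst, the inhibitor of myostatin, at -4.13 (SE 1.08). On leading probes 8 were lower past the cut-off, 4 after a further loess and 1 with normexp. The smallest adjusted p of the genes named from this list was 0.136. Under normexp with loess the list's medians shrank to 0.061, -0.14, -0.0038 and -0.041 in the 4 comparisons of groups, so the median for G-Surgery against G-Sham, 0.33 in the main test, changed sign.

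Genes of the neuromuscular junction and of denervation, 22 in all, had few calls. Of 13 or 14 tested in each comparison, only Runx1, which denervated muscle induces, passed, rising by 1.97 (SE 0.59) in G-Surgery against G-Sham (limma, adjusted p = 0.346). In that comparison 3.47% of all genes passed. The acetylcholine receptor subunits Chrnb1 and Chrne and the esterase Ache were above background on no array. Of 10 genes of embryonic and cardiac-type sarcomere, Tnnc1, the slow and cardiac troponin C, passed in FLT-Surgery against FLT-Sham (-4.42, SE 1.02; limma, adjusted p = 0.136) and none passed elsewhere. Tnnc1 was 1 of 8 genes tested there, against 9.61% of all genes past the cut-off. No FLT-Surgery array measured it, and its Cy5 signal was at least 6.25-fold higher in FLT-Sham.

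Genes of the adult myofibre were read beside the members. Of 37 genes of mature fibres, 32 were tested in FLT-Surgery against G-Surgery and all had lower values in flight on their leading probe, at a median of -2.45, with 7 genes past the cut-off against 3.75% of all genes. In FLT-Surgery against FLT-Sham 36 of 37 were lower on their leading probe, at a median of -3.65. Past the cut-off were 18 leading probes, or 19 genes counting any probe, against 9.61% of all genes, and 10 leading probes with normexp. In FLT-Sham against G-Sham 30 of 37 were higher, with none past the cut-off and a median of 0.82. The direction of these medians was the same after a further loess, after normexp with loess and in Cy5 signal with or without dye normalization. Their summed Cy5 signal ran from 1281780 to 6168530 in G-Sham, 1873850 to 19830000 in FLT-Sham, 981284 to 4908410 in G-Surgery and 363679 to 3254250 in FLT-Surgery, and every gene of the list was above background on at least 1 array. FLT-Sham 6, 4 and 9 had the highest sums and FLT-Surgery 3 and 5 the lowest, the same arrays as for Myf6 and both Myh8 probes in Cy5. Myh3 had another order, with G-Surgery 3 and 4 highest. The part of the amount of adult muscle in each sample in the differences of the members was not tested.

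**Figure D5:**
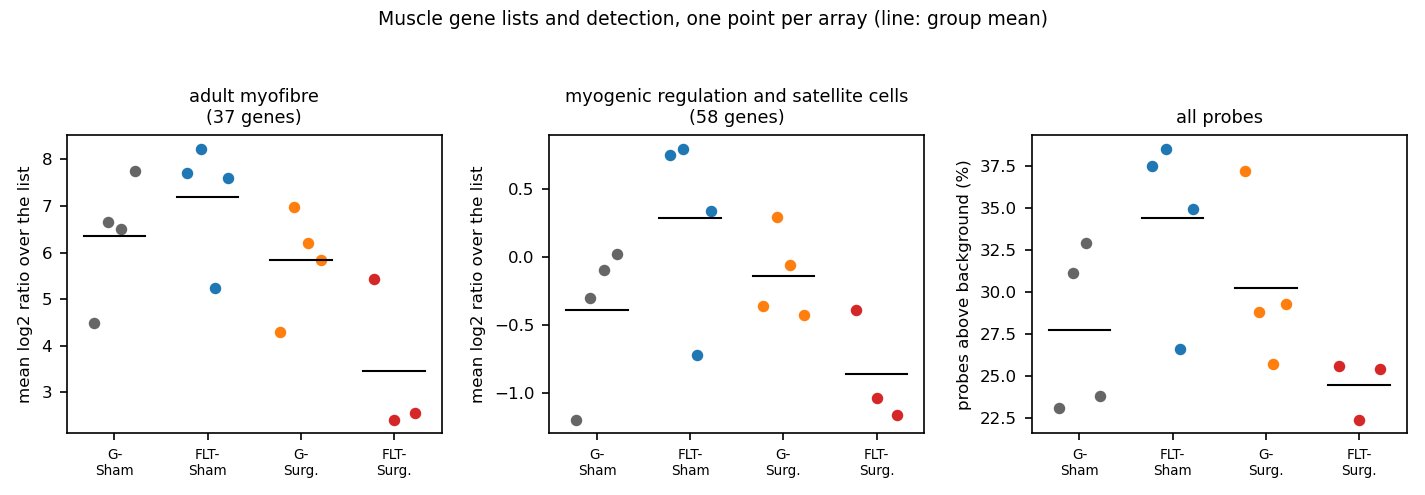
Mean log2 ratio per array over 37 genes of adult myofibres and over 58 regulators of the muscle lineage, and the share of all probes above background (percent), with a point per array and a line at each group mean. FLT-Surgery 3 and 5 are the lowest arrays for adult myofibres, at 2.41 and 2.55, and the FLT-Surgery arrays have 22.4% to 25.6% of probes above background.

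Markers of other cells also differed between groups. The labelled tissue was checked on bone genes, with 11 of 15 osteoblast and osteocyte genes above background on at least 1 array, while Sp7, Sost, Dmp1 and Phex were so on none. Bone genes also passed the cut-off. Alpl, the alkaline phosphatase of osteoblasts, was measured on all 4 FLT-Sham arrays and no FLT-Surgery array, at least 8.38-fold higher in FLT-Sham in Cy5 signal. Its log ratio had a limma adjusted p of 0.0397, and the bound was not itself tested. Bglap2, an osteocalcin gene, gave -3.38 (SE 0.90) in FLT-Surgery against FLT-Sham, and Ibsp, bone sialoprotein, rose by 2.35 (SE 0.47) in FLT-Sham and by 3.1 (SE 0.75) in G-Surgery, each against G-Sham. The list as a whole was split. In these 3 comparisons its leading probes were 5 higher and 5 lower (median -0.16), 6 higher and 5 lower, and 5 higher and 6 lower. Past the cut-off were 2 of 10, 1 of 11 and 2 of 11 genes, against 9.61%, 2.5% and 3.47% of all genes. In FLT-Surgery against FLT-Sham 4 of 7 erythroid genes tested and 3 of 9 neutrophil genes fell past the cut-off, against 9.61% of all genes, with medians of -4.08 and -2.48 beside -0.28 over all probes. Of the erythroid genes that fell, Slc4a1 and Hbb-b1 were above background on no FLT-Surgery array and entered only through FLT-Sham. The endothelial median was -1.89 over 9 genes, none past the cut-off. In FLT-Surgery against G-Surgery no gene of these 3 lists passed it, at medians of -1.45 (erythroid), -1.42 (neutrophil) and -1.43 (endothelial) beside -0.20. In FLT-Sham against G-Sham none passed either, at medians of 2.21, 0.30 and 1.32 beside 0.24. Of 13 genes of nerve and Schwann cells 5 were above background on no array (L1cam, Gap43, Gfap, Nefl and Nefm). The part of these cells in the values of Ncam1, Mef2c and the other members was not tested.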

How the data were processed

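The members and gene lists were chosen with earlier results of these data known. The authors extracted RNA from femoral midshaft, labelled it with Cy5 and a universal reference with Cy3, and hybridised 1 array per mouse, with no dye swap. They deposited Feature Extraction output (12.0 in the labels, 12.0.3.1 in the file headers), whose intensity values of both channels are background-subtracted and dye-normalized by a linear factor and LOWESS. The deposited log10 ratio of Cy5 over Cy3 was multiplied to the log2 scale and used with no further loess. The deposited series table holds the same log10 ratio to within 0.005. The software sets the log ratio to 0 where neither channel is measurable, on 15.8% to 31.9% of spots per array. The array's gene names are those of its design, matched by accession to current symbols.

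Outlier spots were left out and spots of a probe averaged. A probe was tested where its Cy5 signal stood above background on 3 or more of the arrays compared, by limma 3.58.1 (lmFit, eBayes; R 4.3.3), fitted to both groups' arrays, or to all 15 for the difference between spaceflight effects. The cut-off, 2-fold or more with an unadjusted p not above 0.01, is that of the study's methods, with Benjamini-Hochberg adjusted p beside it. A gene's leading probe is its brightest over the 15 arrays. All 10 members are named, and of each list at most the 4 genes with the smallest p past the cut-off in each comparison. Genes on no array were chosen after their values were seen. For likeness, the 5 probes with the highest correlation are named. A fold against a group with no array above background is a lower bound from the Cy5 signal after loess and Aquantile normalization, against the higher of the probe's own signal and the lowest signal called above background on each array, and is open to dye bias. The number of arrays limits the precision. The fit was tested on simulated data. Alternatives were a further loess, normexp on the median signals with offset 50 and loess, median centring, Cy5 alone scaled at its 75th percentile, no filter, a filter on both channels, all 15 arrays in the fit, slide as a block, array weights, outlier spots kept, the series table, a replicate block and leaving out each array. Chosen after seeing the data was Cy5 before dye normalization. Slides held 7, 7 and 1 arrays, and the slide with 1 array held G-Sham 4, marked as a rerun by the deposited file. RNA quality per array is not given in the sources used here. The paper describes the RNA quality as sub-optimal, and as comparable between spaceflight and ground. Its part in the detection and the differences was not tested.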

Additional observations from a re-analysis of the deposited data

Results flagged for a closer look

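Among 45 sets of 4 arrays (15 probes in G-Sham, FLT-Sham and G-Surgery), 6 had an array that stood apart from the other 3 by Dixon's ratio, where chance would give about 1 in 20 sets, or 2.25. Myf6 was at -0.34 on G-Sham 1, against 2.62 to 3.08 on the others. Myod1 was at -1.39 on G-Surgery 3, against 0.07 to 0.27. FLT-Sham 6 stood apart for both Chrna1 probes, at -0.22 against -2.99 to -2.93 and at -0.72 against -2.61 to -2.40, and it was the FLT-Sham array with the most probes above background (38.5%). The brighter Myh8 probe was at 10.57 on G-Surgery 1, against 11.30 to 11.43. A dimmer Ncam1 probe was at -3.59 on FLT-Sham 9, against -1.34 to -1.02, below background on the first and above it on 1 of the others.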

How the results depend on the processing

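Of the fold changes of member probes recomputed under alternatives that keep every array, 278 kept their direction and side of the cut-off, 14 passed it only then, 3 no longer passed it and 25 changed sign. With no filter, the filter on both channels or all 15 arrays in the fit, a difference stays the same by design, so its direction could not change. The tally also ignores size. The brighter Myh8 probe in FLT-Surgery against FLT-Sham counts as kept, at -0.046 in the main test and -3.30 in Cy5 before dye normalization. The cause of no change was tested. The count of members past the cut-off, 0, 0, 0, 1 and 0 in the 5 tests, became 3, 1, 0, 3 and 6 with array weights, under which 4309, 1781, 703, 8758 and 6221 probes passed in all against 394, 519, 458, 1272 and 1160. With slide as a block it became 1 (Myh8) for FLT-Surgery against G-Surgery, with no filter 1 (Myog) for G-Surgery against G-Sham, and for FLT-Surgery against FLT-Sham 0 with normexp, no filter, both channels above background or the slide block, and 2 (Myf6 and Myh8) with all 15 arrays in the fit. Leaving out 1 array gave counts of 0 to 2, 0 to 1, 0 to 1, 0 to 2 and 0 to 3. For FLT-Surgery against FLT-Sham the count was 2 without FLT-Sham 8 or FLT-Surgery 1 and 0 without FLT-Sham 4, 6 or 9, where Myf6 was not tested, or FLT-Surgery 3 or 5. In the test of the difference between spaceflight effects, Myh8 also passed without G-Sham 5 or G-Surgery 1, and Myf6 and Myh8 without FLT-Surgery 1. Over all probes the counts were 33, 208, 180, 293 and 321 with normexp, 55, 395, 254, 585 and 568 with both channels above background, 227, 1290, 210, 550 and 804 with the slide block, 247, 1190, 408, 1193 and 897 after a further loess, 683, 712, 583, 1282 and 1623 with no filter, and 2593 for FLT-Surgery against FLT-Sham with all 15 arrays.

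Differences that changed sign were small in the main test. For FLT-Sham against G-Sham, the dimmer and brighter Myh3 probes gave -0.046 and -0.32 after a further loess and -0.0022 and -0.34 in Cy5 before dye normalization, and the brighter gave -0.053 in Cy5 alone. The brighter Myh8 probe gave 0.067 with normexp, 1.05 in Cy5 alone and 1.02 in Cy5 before dye normalization. For FLT-Surgery against G-Surgery it gave 0.010 after a further loess. For G-Surgery against G-Sham the brighter Myh8 probe gave -0.020 with normexp, -0.043 with median centring, -0.82 in Cy5 alone and -0.75 in Cy5 before dye normalization. The dimmer gave -0.32 with normexp, -0.64 in Cy5 alone and -0.35 before dye normalization, and Ncam1 gave -0.097 with median centring and -0.051 with the slide block. The brighter Myh8 probe in FLT-Surgery against FLT-Sham gave 0.86 after a further loess, 0.44 with median centring, 0.33 with the slide block and 0.14 with array weights, and in the difference between spaceflight effects 0.72, 0.32 and 0.010 after a further loess, centring and array weights. With 1 array left out, Myh3 in FLT-Sham against G-Sham ran from -0.0072 to 1.24 and from -0.37 to 1.28, Ncam1 in FLT-Surgery against G-Surgery from -0.058 to 0.54 and in G-Surgery against G-Sham from -0.078 to 0.35, the dimmer Myh8 probe there from -0.22 to 0.72, and the brighter from -0.48 to 0.37 in FLT-Surgery against FLT-Sham and from -0.65 to 0.19 in the difference between spaceflight effects.

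The replicate numbers did not pair the samples: the same-number correlations were -0.362, -0.193 and 0.243 for the Surgery groups and 0.354, -0.0524, -0.0672 and -0.162 for the ground groups. With the replicate block 0 members passed in FLT-Surgery against G-Surgery and 0 in G-Surgery against G-Sham, and 215 and 389 probes passed in all. No paired analysis was possible for the other comparisons because FLT-Sham shares only 1 number with G-Sham and none with FLT-Surgery. Most members were near the limit of detection, which limits every value given for Pax7, Myf5, Myod1, Myog, Mef2c and Chrna1.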
